A study of Mus musculus with 11 samples.

Results

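The 1352 regions described here had the most transposase cuts, not scaled to width, of accessible regions away from gene starts in MPC2 cells. They were chosen by level and position: a level of at least 5, and a distance of more than 1 kb from every annotated transcript start (GENCODE release M21, mouse build mm10). They made up 1.42% of the 94963 accessible regions in the deposited list and 1.84% of its 73426 distal regions. The level is the value the list gives for each region, read here as the average log2 CPM over all cultures, where CPM counts cuts by the transposase scaled to library size. Because the level selected the members, their levels are given as a description and were not tested. The same holds for width, since wider regions collect more cuts.

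ATAC-seq, in which the Tn5 transposase cuts and tags open chromatin, was performed on 11 cultures of MPC2, a conditionally immortalised mouse mesenchymal progenitor line derived from 1 clone. MSC cultures, which are MPC2 cells left undifferentiated, received vehicle (DMSO, n = 3) or 50 uM FG-4592 (n = 3). Osteocyte cultures, differentiated for 3 weeks, received vehicle (n = 2) or 50 uM FG-4592 (n = 3). FG-4592 (Roxadustat) inhibits the HIF prolyl hydroxylases, and all cultures were treated for 48 hours. The list pooled all cultures into 1 value per region, so that depth per culture, replicate error and differences between MSCs and osteocytes or between drug and vehicle were not measurable. Intervals below are 95% intervals that cover counting error over regions only, and regions are not replicates.

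Distal accessible regions include enhancers, which are stretches of DNA where transcription factors bind and act on genes that can lie far away. In mesenchymal and bone cells such regions are known to carry sites for AP-1 (dimers of FOS and JUN proteins), TEAD factors of the Hippo pathway and RUNX factors. Other distal regions are insulators bound by CTCF or CpG-rich elements that resemble promoters and carry GC boxes, the sites of SP and KLF factors. The nearest gene named for a region below is the coding gene with the closest start, which need not be the gene the region acts on.

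The sequences that follow come from members with the highest levels and show the 3 motifs most used below. The first 4 are the highest members with an AP-1 site in the central 400 bp, after 2 higher ones that are not shown because the first, near Kdm6b, lies over an exon and the site of the second, near Zfp869, is in an exon of a RefSeq messenger RNA. Capitals mark the AP-1 site (TGAGTCA or its reverse complement TGACTCA). All are on the plus strand of mm10, with 60 bases on either side of the site. The region named for Trim8 is at chr19:46503978-46504104 inside an intron of Trim8, that for Socs5 at chr17:87175022-87175148 between genes, that for Dct at chr14:117930674-117930800 inside an intron of Gpc6, and that for Ahnak at chr19:8983007-8983133 between genes.
Trim8: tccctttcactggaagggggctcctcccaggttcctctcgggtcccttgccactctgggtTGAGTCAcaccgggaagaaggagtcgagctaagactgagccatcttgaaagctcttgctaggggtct
Socs5: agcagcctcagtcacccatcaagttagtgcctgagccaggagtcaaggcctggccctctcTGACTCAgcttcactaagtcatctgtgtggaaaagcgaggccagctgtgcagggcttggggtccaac
Dct: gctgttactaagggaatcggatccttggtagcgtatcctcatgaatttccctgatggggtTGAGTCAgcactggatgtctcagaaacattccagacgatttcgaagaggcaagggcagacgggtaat
Ahnak: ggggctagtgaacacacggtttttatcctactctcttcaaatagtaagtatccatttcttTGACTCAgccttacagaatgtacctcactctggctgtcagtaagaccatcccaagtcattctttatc

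A CTCF core (CCACNAGGG, where N is any base) is shown in capitals in the highest member that had one in its centre, upstream of Kdm6b at chr11:69418379-69418507. The GC box (GGGCGG, or CCGCCC on the other strand) is shown in capitals in the highest CpG-rich members with one in the central 400 bp, near Nr4a3 at chr4:48043265-48043390 and near Wnt7b at chr15:85634768-85634893. In the Nr4a3 window a pair of overlapping GC boxes was counted as 1 site. The GC boxes were chosen for display after their frequency was seen. The 3 stretches are also on the plus strand of mm10 and lie between genes in GENCODE, while RefSeq places the Kdm6b and Wnt7b stretches partly or wholly in exons of noncoding transcripts.
Kdm6b: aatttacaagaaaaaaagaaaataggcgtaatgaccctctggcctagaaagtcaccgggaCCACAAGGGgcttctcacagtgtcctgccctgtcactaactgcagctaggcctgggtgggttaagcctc
Nr4a3: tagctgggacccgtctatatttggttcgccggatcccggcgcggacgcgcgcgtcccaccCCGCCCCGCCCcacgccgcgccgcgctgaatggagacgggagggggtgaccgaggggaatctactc
Wnt7b: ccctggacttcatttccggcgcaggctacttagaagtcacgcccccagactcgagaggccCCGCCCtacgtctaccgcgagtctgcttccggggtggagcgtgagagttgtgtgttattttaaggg

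Levels of the 1352 members ran from 5.00 to 7.15, with a median of 5.36, equal to 41.1 CPM. They covered 1.76 Mb and held 6.11% of the summed CPM of the list. Widths ran from 337 to 3628 bp with a median of 1236.5 bp. The comparison set consisted of the 9974 distal regions in the same range of widths with a level from 3 to 4, with a median level of 3.41 (10.6 CPM) and a median width of 803.5 bp. The sets therefore shared a range but not a distribution of widths, and the differences in motif and CpG-rich shares were also computed within 6 classes of width. A threshold of 4.5 takes in 4.13% of distal regions and one of 5.5 takes in 0.685%. Just inside the threshold of 5 lay regions nearest to Irf2bpl (5.00098), Gm10604 (5.00176) and Rftn1 (5.00238). Just outside lay regions nearest to 1810013L24Rik (4.99981), Vgll4 (4.99916) and Stk40 (4.99850).

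The highest member, at a level of 7.15, was a 2489 bp region between genes at -5007 bp from the start of Tnrc18. It was followed at 7.13 by a region of 1004 bp at -1906 bp from Nr4a3, which encodes an orphan nuclear receptor. Kdm6b, a demethylase of lysine 27 on histone H3, had 2 of the 12 highest members. One, at 6.94, was the widest region of the list (3628 bp) and overlapped an exon of Kdm6b and a UTR, and the other, at 6.71, lay at -4742 bp from its start. A region over an exon of Plekhg6 had a level of 6.86.

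The rest of the 12 highest included an intron of Arid1b, which encodes a subunit of the BAF chromatin remodelling complex, at 6.85. An intron of the forkhead factor gene Foxk1, nearest by start to Ap5z1, had 6.84. Regions upstream of the zinc finger gene Zfp869 and of Wnt7b, a Wnt ligand, had 6.80 and 6.77. A region in an intron of Mcc, nearest to the decapping enzyme gene Dcp2, had 6.68. The list of 12 ended with an intron of Trim8, a ubiquitin ligase of the TRIM family, at 6.60. None of the regions near Tnrc18, Nr4a3, Arid1b, Ap5z1 and Wnt7b held an AP-1 site anywhere in its width, whereas the region over a Kdm6b exon held 4 AP-1 sites and the one near Dcp2 held 3.

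**Figure D1:**
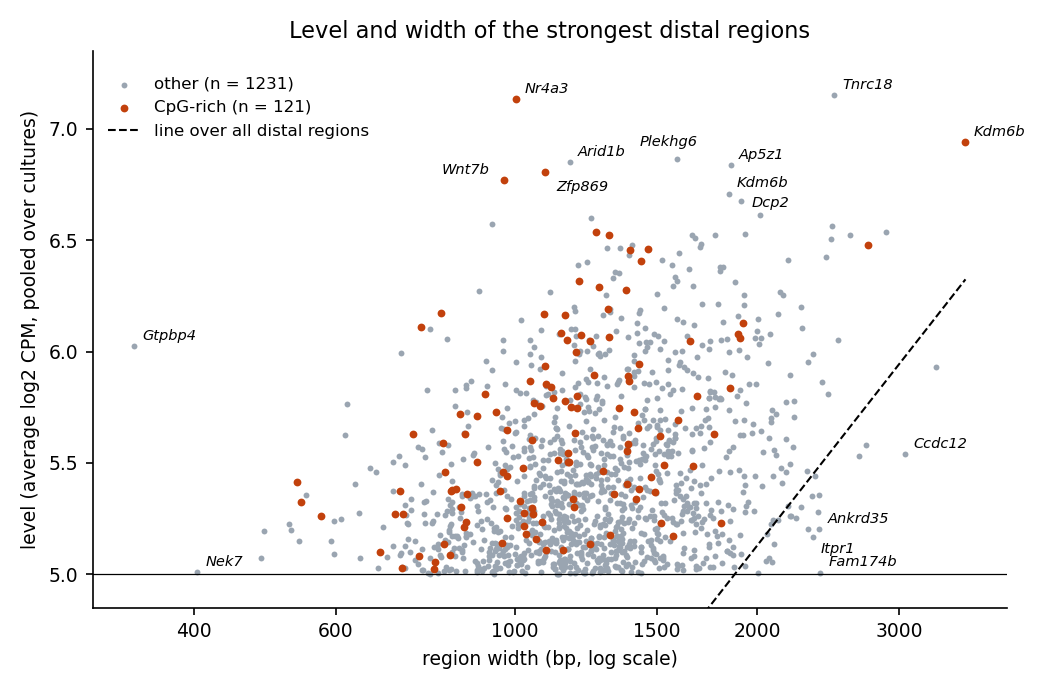
Width (bp, log scale) and level (average log2 CPM pooled over cultures) of the 1352 members, with the 121 CpG-rich members in orange, the threshold as a horizontal line and the straight line of level on log2 width over all distal regions dashed. Nearest coding genes name the 10 highest members and the 4 farthest from the dashed line on either side: Gtpbp4 is the narrowest at 337 bp, and few members lie below the line.

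Some members were high for their width. Relative to the straight line of level on log2 width over all distal regions, the region farthest above it was a 337 bp stretch in an intron near Gtpbp4, a GTP-binding protein of ribosome assembly, with a level of 6.02, or 4.47 log2 units above the line. The Nr4a3 region stood 3.38 above it, a 403 bp region in an intron of the kinase gene Nek7 stood 3.09 above it, the Wnt7b region 3.09, and a 619 bp region nearest to Cpn2 2.99. Farthest below the line lay a 2397 bp region nearest to Fam174b at -0.48, followed by regions near Ccdc12 (-0.44), Ankrd35 (-0.28) and Itpr1 (-0.28). The lower limit on level fixes that most members lie above the line.

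Members were richer in GC and in CpG than comparison regions. In the central 400 bp, which 1351 members and 9774 comparison regions were wide enough to hold, the median GC content was 52.5% in members and 48.25% in comparison regions. The windows of 121 members (8.96%, interval 7.55% to 10.6%) were CpG-rich, with at least 55% GC and an observed over expected CpG ratio of at least 0.6, against 132 comparison windows (1.35%). The difference was 7.61 percentage points (6.18 to 9.26), and in regions within 1 kb of a transcript start the share was 56.3%. Within the width classes the difference in CpG-rich share was 7.92 points (5.79 to 10.0). Repeats took a median of 6.5% of the window in members and 8.5% in comparison regions.

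The call of distal depends on the annotation. RefSeq, which was not used to choose the members, placed a transcript start within 1 kb of 143 members (10.6%) and of 470 comparison regions (4.71%), a difference of 5.86 points (4.28 to 7.66). Of the 121 CpG-rich members, 34 (28.1%) had such a start, against 109 of the other 1230 (8.86%). Without regions that have a RefSeq start nearby, 1209 members were left and the difference in CpG-rich share was 6.07 points (4.73 to 7.68).

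GC boxes differed most between the sets. A GC box was present in the central window of 320 members (23.7%) and 978 comparison regions (10.0%), a difference of 13.7 points (11.4 to 16.1). In windows of 400 bp taken 10 kb to either side of the members, the share was 6.52%, and in promoter regions it was 56.8%. The CpG-rich members held a GC box in 97 of 121 windows (80.2%), and the CpG-rich comparison regions in 82 of 132 (62.1%). The other members also exceeded comparison regions that were not CpG-rich, with 18.1% against 9.29%, a difference of 8.84 points (6.70 to 11.2). Over all windows the difference was 7.20 points (4.89 to 9.51) within 4 classes of GC content and 16.1 points (13.2 to 18.9) within the width classes. The highest class of GC content, from 56.25%, did not match the sets in composition. In it 30.7% of members and 13.3% of comparison regions were CpG-rich, and 50.1% and 35.9% held a GC box. The member with the most GC boxes was an intronic region of 2745 bp near Ppara with 15 sites over its width.

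AP-1 sites showed a different picture. Over all windows, 311 members (23.0%) and 2490 comparison regions (25.5%) held an AP-1 site, a difference of -2.46 points whose interval of -4.79 to 0.02 included 0. In members the share was 3.89 times that of the flanking windows (5.92%), and in comparison regions it was 4.06 times, so AP-1 sites stood far above their surroundings in both sets. The share was 22.6% in all distal regions and 8.44% in promoter regions. Narrow regions held an AP-1 site in their centre more often than wide ones, and members are wide. Within the 6 width classes the direction reversed, with members higher by 6.55 points (3.14 to 9.96). Within classes of GC content the difference was -0.28 (-2.73 to 2.16), and for members from a level of 4.5 it was -0.022 (-1.77 to 1.78). The interval lay below 0 for members from 5.5 (-9.30 to -2.16), in the central 200 bp (-5.09 to -1.33) and with the looser TGANTCA (-6.56 to -1.45). It also lay below 0 over 2 kb from starts, with coding starts only and without chromosome 16.

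Members had the higher share in each of the 6 width classes. In the narrowest class, up to 956 bp, 85 of 226 members (37.6%) and 2046 of 7131 comparison regions (28.7%) had a central AP-1 site. In the next class, up to 1115 bp, the shares were 31.6% and 18.8%. In the remaining 4 classes they were 18.8% and 15.4%, 17.3% and 13.1%, 20% and 13.4%, and 12.8% and 9.52%, with intervals that overlapped in each class and only 21 comparison regions in the widest one. Over whole regions, 48.3% of members and 36.5% of comparison regions held at least 1 AP-1 site, but per kb the sets had 0.54 and 0.55 sites. At least 2 sites were present in 17.4% of members and 7.36% of comparison regions.

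**Figure D2:**
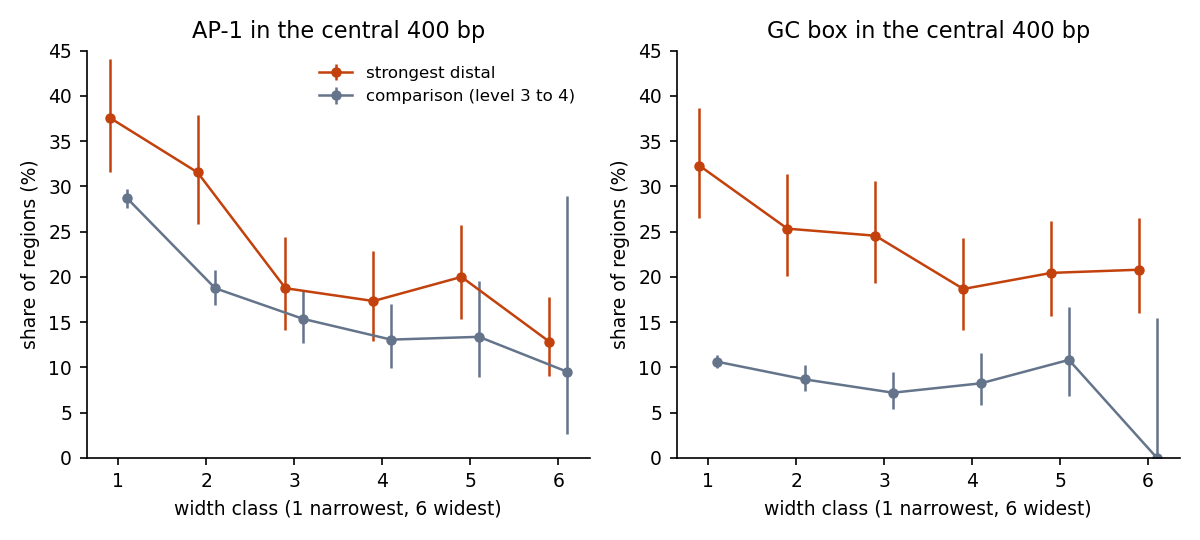
Share of regions (%) with an AP-1 site (left) or a GC box (right) in the central 400 bp, by width class from narrowest (1) to widest (6), in members (orange) and comparison regions with a level from 3 to 4 (grey). Bars are 95% Wilson intervals. AP-1 shares are lower in the widest than in the narrowest class in both sets, at 12.8% and 37.6% in members, with a small rise from class 4 to class 5, and the member point lies above the comparison point in all 12 pairs.

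Since the level chose the members, the shares by band of level are a description with no test. AP-1 was present in 25.1% of the 849 members below 5.5, in 21.3% of the 356 from 5.5 to 6 and in 15.1% of the 146 from 6 upwards. The GC box shares were 19.0%, 29.8% and 36.3%, and the share of CpG-rich members was 6.24%, 11.2% and 19.2%. TEAD sites had 10.8%, 11.0% and 13.7% and RUNX sites 14.1%, 13.2% and 11.0%. The median width rose over the same bands from 1171 to 1316.5 and 1468 bp, and the part of width in these shares was not tested.

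**Figure D3:**
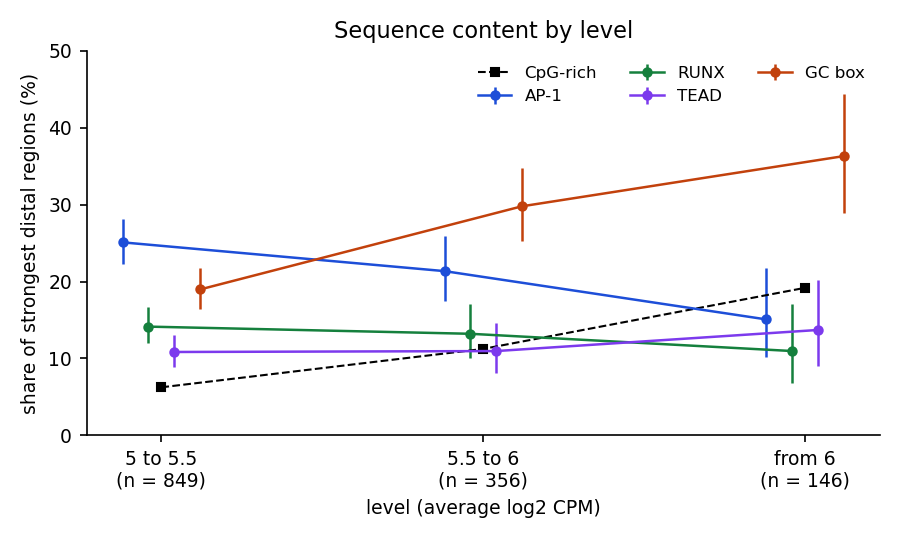
Share of members (%) with each motif in the central 400 bp, and share of CpG-rich members, in 3 bands of level (average log2 CPM). Bars are 95% Wilson intervals for the motifs and cover counting error only. GC boxes go from 19.0% to 36.3% while AP-1 sites go from 25.1% to 15.1%.

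The HRE core (ACGTG or GCGTG), which HIF transcription factors bind, was present in 588 members (43.5%) and in 36.1% of comparison regions, a difference of 7.47 points (4.68 to 10.3). It was present in 33.6% of flanking windows of members, 35.4% of all distal regions and 64.2% of promoter regions. Within classes of GC content the difference was 2.29 points and its interval of -0.55 to 5.14 included 0. CRE sites (TGACGTCA), bound by CREB and ATF factors, were rare and present in 15 members (1.11%) and 37 comparison regions (0.38%), a difference of 0.73 points (0.27 to 1.45), with an interval that included 0 within width classes (-0.63 to 2.49) but not when the widest class, which has 21 comparison regions, was left out (0.016 to 1.52). ETS sites (CCGGAAG) were present in 4.52% of members and 2.41% of comparison regions, a difference of 2.10 points (1.06 to 3.38), which was 0.90 (-0.34 to 2.14) within classes of GC content. The NFI palindrome was rare, with 4 of 1351 members (0.30%) and 6 of 9774 comparison regions (0.061%). Its difference of 0.23 points (0.040 to 0.70) rests on these few regions, and the interval included 0 within the classes of width and of GC content, at thresholds of 4.5 and 5.5, over 2 and 5 kb from starts and with coding starts only.

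Sites of several developmental factors were less frequent in the central windows of members. RUNX sites (TGTGGTT), bound by the master regulator family of osteoblasts and blood cells, were present in 183 members (13.5%) and 18.3% of comparison regions, a difference of -4.78 points (-6.67 to -2.71). That difference was -1.39 (-4.59 to 1.81) within the width classes and -1.92 (-3.91 to 0.07) within classes of GC content. Sites of TCF/LEF factors of the Wnt pathway (ATCAAAG), of forkhead factors (TGTTTAC) and of homeobox factors (TAATTA) had differences of -1.48, -1.71 and -2.04 points with intervals below 0. In the central 200 bp all 3 intervals included 0. That of forkhead also included 0 for members from 5.5, over 2 and 5 kb from starts and with RefSeq starts removed, that of TCF/LEF for members from 5.5, and that of homeobox without CpG-rich regions. Within classes of GC content the intervals of all 3 included 0, and the homeobox difference was 0.089. Within the width classes the homeobox difference was -7.26 (-10.8 to -3.68), while those of TCF/LEF at -1.12 (-3.43 to 1.19) and forkhead at -0.26 (-2.28 to 1.77) had intervals that included 0. Without the widest class the homeobox difference was -4.49 (-6.41 to -2.57) and the forkhead difference -1.64, with an interval just below 0.

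TEAD sites (ACATTCC) were present in 151 members (11.2%) and 10.7% of comparison regions, with a difference of 0.44 points (-1.25 to 2.33) that was 3.17 (0.74 to 5.59) within the width classes. The widest class, in which 26 of 226 members and 0 of 21 comparison regions held a TEAD site, carried much of that value, and without it the difference was 1.49 (-0.74 to 3.72). The TEAD interval also lay above 0 for members from 4.5 (0.17 to 2.80) and over whole regions (6.01 to 10.95). With coding starts only (-0.42) and in the central 200 bp (-0.35) the TEAD difference was below 0, with intervals that included 0. The CTCF core was present in 51 members (3.77%) and 3.10% of comparison regions, with a difference of 0.67 points (-0.29 to 1.87). That difference was 2.23 (0.43 to 4.04) within the width classes and -0.57 (-1.76 to 0.62) within classes of GC content. The intervals of C/EBP (TTGCNNAA), STAT (TTCCNGGAA), SOX (CCATTGT), CArG box and glucocorticoid element sites included 0. For C/EBP the interval lay below 0 for members from 5.5 (-7.37 to -0.59) and with coding starts only (-4.57 to -0.58). For STAT it lay above 0 in the central 200 bp (0.021 to 1.49) and over whole regions (1.65 to 4.42), and just above 0 with regions within 500 bp joined. A rearrangement of the AP-1 letters (AGTCTGA), counted as a control, was present in 7.25% of members and 7.92% of comparison regions and was 1.08 times as frequent as in the flanks of members.

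**Figure D4:**
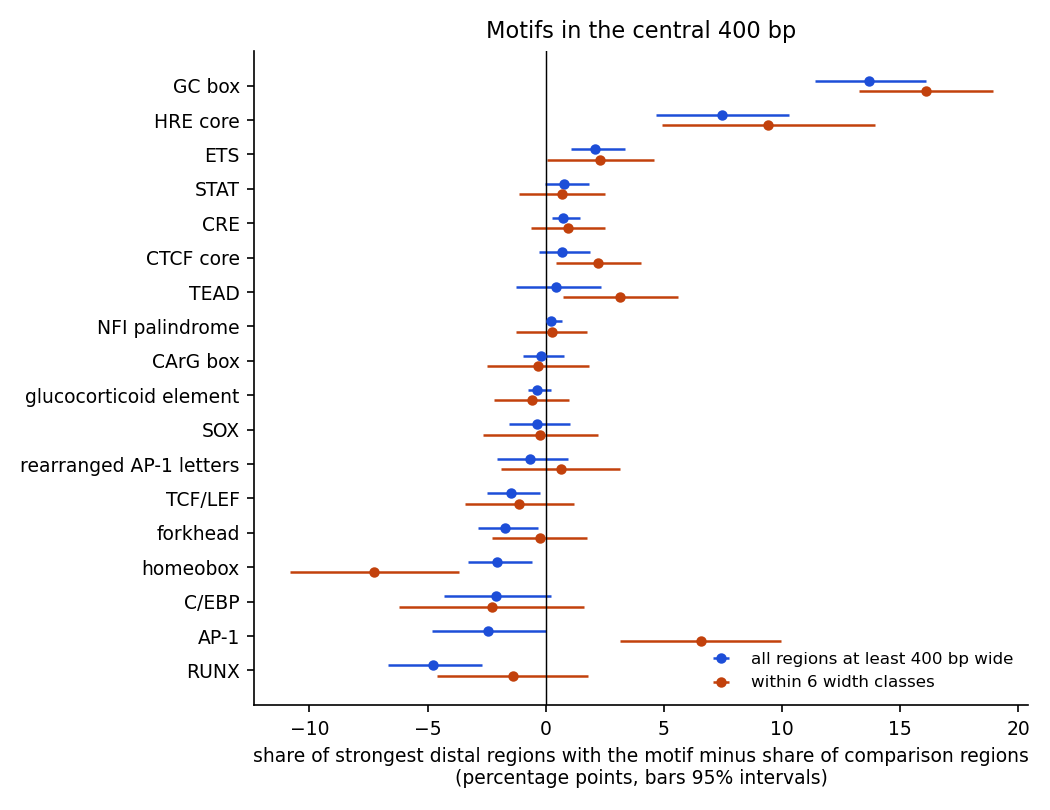
Share of members with each motif in the central 400 bp minus the share of comparison regions (percentage points), over all regions at least 400 bp wide (blue) and within 6 width classes weighted by the members (orange). Bars are 95% intervals. GC boxes stand highest in both, at 13.7 and 16.1 points, and the AP-1 points lie on opposite sides of 0.

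In the 1074 members at least 1000 bp wide, AP-1 sites within 100 bp of the centre had a density of 0.58 per kb, against 0.54 per kb at 300 to 500 bp. GC boxes had 0.91 per kb inside and 0.69 per kb outside. In the 2156 comparison regions of that width, AP-1 had 0.45 and 0.40 sites per kb, and GC boxes 0.27 and 0.22.

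By position, 612 members (45.3%) lay between genes, 581 (43.0%) in introns and 159 (11.8%) over exons. Introns were less frequent than in comparison regions by 5.54 points (the difference of members minus comparison was -5.54, with an interval of -8.34 to -2.71), and the intergenic share was higher by 3.50 points (0.69 to 6.33). The exon share was higher by 2.05 points (0.33 to 3.96), and by 12.7 (10.5 to 14.9) when only starts of coding transcripts defined distal. It was 0.18 (-1.74 to 2.09) within classes of GC content and 0.37 (-1.25 to 2.30) over 5 kb from starts, and its interval also included 0 for members from 4.5, over 2 kb from starts, without CpG-rich regions and with RefSeq starts removed. The intergenic difference was 1.85 points (-1.06 to 4.80) without CpG-rich regions, and it was -2.32 (-4.75 to 0.17) when only starts of coding transcripts defined distal. Of the CpG-rich members, 63.6% lay between genes, against 53.8% of the CpG-rich comparison regions. A GC box was present in 27.1% of intergenic members, 18.1% of intronic and 30.8% of exonic ones, while TEAD sites were in 9.64%, 14% and 6.92%. In comparison regions, in the same order, the GC box shares were 9.90%, 9.09% and 15.04% and the TEAD shares 10.9%, 10.8% and 9.64%. Exonic regions thus had the highest GC box share and the lowest TEAD share in both sets.

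The median distance of members to the nearest transcript start was 9656 bp, against 11210.5 bp in comparison regions. Between 1 and 2 kb from a start lay 123 members (9.10%), and 17 (1.26%) lay more than 100 kb from any start, against 2.36% of comparison regions. The nearest start belonged to a noncoding gene or pseudogene for 570 members (42.2%) and 44.0% of comparison regions, a difference of -1.84 points (-4.63 to 0.98). Relative to the nearest coding gene, 503 members (37.2%) lay inside it, 136 (10.1%) inside another coding gene, and 597 (44.2%) were upstream of its start. The median distance to the coding start was 23.0 kb, and 167 members were more than 100 kb away.

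Chromosome 11 held 142 members, 2.63% of its distal regions (2.23% to 3.09%), and chromosome 17 held 81 (2.41%). The lowest shares among chromosomes with a member were 0.95% on X (10 members) and 0.96% on chromosome 3 (29 members). Neighbouring members were uncommon, since 131 (9.69%) had another member within 10 kb. Among the more numerous comparison regions 24.7% had a neighbour of their own kind within 10 kb, and the numbers are not comparable because the sets differ in size.

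Of 21829 coding genes, 1085 (4.97%) were nearest to at least 1 member, and 5246 (24%) to at least 1 comparison region. Most of the 1085 genes had 1 member (890 genes), 145 had 2, 37 had 3 and 13 had 4 or more. Haao, which encodes an enzyme of tryptophan breakdown by the kynurenine route, had the most, with 8 of its 29 nearest distal regions. These spread over 181 kb, had levels from 5.18 to 6.02, lay outside the gene, and held no AP-1 site. Transcripts of the noncoding genes C430042M11Rik, AC091309.4 and AC091309.2 started closer to 7 of them than Haao did.

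Irf2bpl, which encodes a protein of the IRF2-binding family, had 6 members within 71.5 kb, at levels from 5.00 to 6.27, and 4 of them formed a run with 1 more nearest to Lrrc74a, 5 members in 33.5 kb. Its relative Irf2bp2, a corepressor, had 4 members at 5.02 to 5.97 spread over 198 kb, 3 of them with an AP-1 site. Runx1 had 5 of its 72 distal regions as members, 4 of them inside introns of the gene, at 5.15 to 5.98, and 4 held an AP-1 site.

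Sox9, the master factor of cartilage, had 5 members spread over 316 kb downstream of the gene, from 68.4 to 383 kb from its start, at 5.01 to 5.77. Ppara, a nuclear receptor of fatty acid use, had 4 members within 41.7 kb at 5.33 to 6.48, and none had an AP-1 site. The noncoding Lncppara had the closest start to 3 of them, and the microRNA gene Mirlet7b to the fourth. Gse1 had 4 intronic members at 5.41 to 5.92, Dhrs3, an enzyme of retinoid metabolism, had 4 at 5.20 to 6.26, and Syne3, which encodes the nuclear envelope protein nesprin-3, had 4 at 5.03 to 6.18, of which 3 were inside the gene.

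Over the 10 gene lists other than that of other lineages, 2.71% of the distal regions nearest to listed genes were members, beside 1.84% of all distal regions. The lists were chosen with earlier results of these data known, and members near 1 gene share a locus, so nothing particular to the lists is read from these shares. For AP-1 subunits the count was 5 of 73 (6.85%). Fos had 3 members, the highest at 6.08, Jun had 1 at 5.48 and Fosl1 had 1 at 5.13, and the highest region of each of these 3 genes held no AP-1 site. Without CpG-rich regions 2 members were left for this list.

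Genes of the TGF-beta and BMP pathway, which steers osteoblast formation, had 16 of 466 (3.43%). Ltbp2, which encodes a latent TGF-beta binding protein, had 3, the highest at 6.08, and the inhibitory Smad genes Smad6 and Smad7 had 3 and 2, at up to 5.63 and 5.95. The adipocyte and chondrocyte list had 11 of 333 (3.30%), among them Sox9 with 5, Klf4 with 2 (5.37 and 6.52) and Cebpb with 1 (5.58). With regions assigned only within 100 kb of a coding start, 4 of this list's members were left. Osteogenic transcription factors had 8 of 283 (2.83%): apart from Runx1, these were single members of Sp7 (6.05), Dlx6 (5.15) and Runx2 (5.10), of which the Runx2 region held 3 AP-1 sites. Without chromosome 16, which carries Runx1, 3 were left.

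The matrix list had 12 of 466 (2.58%). The type I collagen genes Col1a2 and Col1a1 had 3 and 2 members, the highest at 5.81 and 6.17, at -47984 and -62625 bp from their starts. Lox, which crosslinks collagen, had 2, the higher at 5.72. Wnt pathway genes had 9 of 368 (2.45%), with 3 near Wnt7b (5.23 to 6.77) and 1 each near Wnt10b (5.95) and Wnt11 (5.80). FGF and receptor kinase genes had 5 of 248 (2.02%), with Pdgfrb at 2, the higher at 5.74, Spry2 at 1 (5.36) and Fgfr1 at 1 (5.30). The Hippo list had 2 of 156 (1.28%), near Amotl2 (5.43) and Vgll3 (5.19). Genes of other lineages had 0 of 51, which allows a share of up to 7.005% by the Wilson interval.

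Oxygen sensing genes and HIF targets had 4 of 186 (2.15%). Ldha, a lactate dehydrogenase, had 1 at 5.34 with no HRE core, the glycolytic regulator gene Pfkfb3 1 at 5.15, also with no HRE core, Egln1, which encodes the oxygen sensor PHD2, 1 in an intron at 5.11 with 3 HRE cores, and Vegfa 1 in an intron at 5.02 with 1 HRE core. Osteocyte and mineral genes had 3 of 191 (1.57%), with the vitamin D receptor gene Vdr at 6.00, Dmp1 at 5.32 and Phospho1 at 5.22. The Dmp1 region overlapped an exon of a noncoding gene 37.6 kb after the Dmp1 start. Of the 148 distal regions nearest to 15 loci examined by the study, 3 were members (2.03%), near Egln1, Vegfa and Dmp1, a share near the 1.84% of all distal regions. The highest distal regions of Fgf23 (4.69), Hif1a (4.77) and Tnfsf11 (4.94) fell below the threshold.

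**Figure D5:**
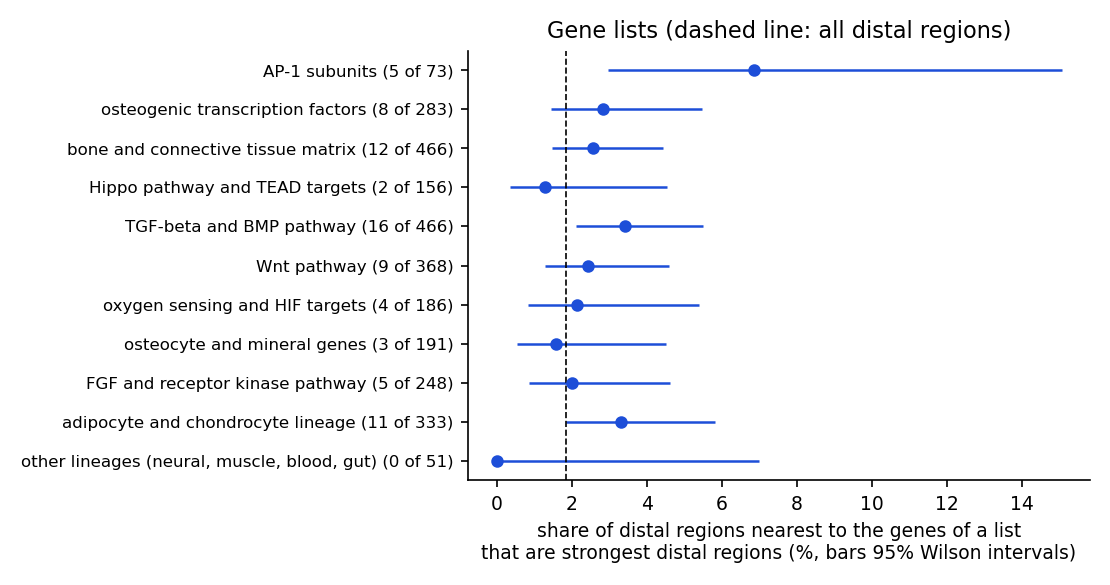
Share (%) of the distal regions nearest to the genes of each list that are members, with 95% Wilson intervals, counts in brackets and the share over all distal regions (1.84%) as a dashed line. AP-1 subunits stand highest at 6.85% (5 of 73), and other lineages are at 0. The intervals cover counting error only and treat regions of 1 locus as separate.

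As a check of the labelled cell type, 12 mesenchymal and bone markers and 12 markers of other types were looked up among promoter regions. A region within 1 kb of a start was present for 9 of the first 12, at levels from 2.33 to 6.13, with Phex, Sost and Pdpn lacking one, and for 5 of the other 12, at 1.35 to 4.31. Both MSCs and osteocytes enter the pooled levels and cannot be told apart.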

How the data were processed

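ATAC-seq reads of the 11 cultures were processed by the authors: alignment to mm10 with Bowtie2, removal of duplicates with Picard 2.17.8, peak calling with MACS2 2.2.7.1, merging of peaks, removal of blacklisted regions, counting of cuts, and TMM normalisation in edgeR 3.24.3. Whether ends were moved to correct for how Tn5 cuts is not given in the sources used here, and a library dropped by the authors was not analysed. The deposited column is read as average log2 CPM: 460 values lie below 0 and 2 to the power of the values sums to 1012760. It is 1 value per merged region over all cultures, so the depth per sample is unknown. Merged peaks set the width of each region.

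Starts were converted to 1-based coordinates, and 0 regions ran past a chromosome end. Motifs were counted on both strands in the central 400 bp, with overlapping matches counted as 1 site. Shares carry Wilson intervals and differences Newcombe intervals at 95%. Differences within classes are weighted by the members, with normal intervals after Agresti and Caffo. No p-value was computed. The members, motifs and gene lists were chosen with earlier results of these data known. The genes named are those of the 12 highest members, the 10 genes with the most members, the 3 regions on either side of the threshold, the 3 leading genes of each list, members at the loci of the study and the 5 farthest on either side of the width line. Some of these are not reported here. Motif counting and the Newcombe intervals were tested on simulated data. Reference genome and transcripts came from GRCm38 (RefSeq) and GENCODE. Python 3.11.15, numpy 2.4.6, pandas 2.3.3, pysam 0.24.0 and matplotlib 3.10.9 were used.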

Additional observations from a re-analysis of the deposited data

How the results depend on the processing

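No paired analysis was possible because every culture is pooled into 1 value per region; for the same reason leaving out a library was not run. Differences of shares are members minus comparison regions, in percentage points. Classes of GC content, removal of RefSeq starts and width classes with the widest left out were added after the data were seen. Under every alternative in which each was computed, the CpG-rich share, the GC content and the GC box share stayed higher and the intron share lower in members, with intervals on 1 side of 0. GC content was not computed within classes of GC content. Joining regions within 500 bp and keeping autosomes only moved none of the main results.

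The set and its genes depend on the threshold by construction: a level from 4.5 gave 3030 members near 2092 coding genes, 18.3% of them with a neighbour within 10 kb and 6.46% of distal regions near listed genes (4.13% of all distal regions), and a level from 5.5 gave 503 members, 450 genes, 7.16% and 1.05% (0.685% of all). The median distance to a start was 11070 bp over 2 kb from starts, 15299.5 bp over 5 kb and 6122 bp with coding starts only, where 12.4% had a neighbour within 10 kb. Neighbours within 5 kb were found for 4.73% and within 25 kb for 19.8%.

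The AP-1 difference was below 0 with its interval for members from 5.5 (-5.95, where the rearranged letters were also below 0 at -2.74, with an interval of -4.45 to -0.38), over 2 kb from starts (-2.68), coding starts only (-3.69), without chromosome 16 (-2.77), in the central 200 bp (-3.30) and with the looser TGANTCA (-4.06), and it turned to 6.55 within width classes, 7.21 with the widest class left out and 11.8 over whole regions. The CTCF core difference was 2.23 within width classes, 2.06 with the widest left out, 3.31 over whole regions and -0.57 within classes of GC content.

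The exon difference was 12.7 with coding starts only and had an interval that included 0 for members from 4.5 (0.75), over 2 kb (1.59) and 5 kb (0.37) from starts, without CpG-rich regions (1.34), with RefSeq starts removed (1.495), within classes of GC content (0.18) and within width classes with the widest left out (1.63). So did the intergenic difference over 5 kb from starts (3.35), without CpG-rich regions (1.85), with RefSeq starts removed (2.50), within width classes (2.35) and with the widest left out (2.96), and it turned to -2.32 with coding starts only.

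Over whole regions, where wider members hold more letters, differences turned positive for the rearranged AP-1 letters (7.97), RUNX (6.56), C/EBP (10.6), TCF/LEF (2.94), forkhead (2.43), homeobox (2.92), SOX (2.07), CArG box (3.32) and glucocorticoid element (0.95). Within classes of GC content they turned to 1.15 for C/EBP, 0.089 for homeobox, 0.40 for SOX and 0.13 for CArG box. Small differences also changed sign for members from 4.5 (rearranged letters 0.57, SOX 0.018, CArG box 0.013), members from 5.5 (CArG box 0.29), coding starts only (TEAD -0.42, glucocorticoid element 0.053), width classes (rearranged letters 0.64, and 0.22 with CArG box 0.11 without the widest) and the central 200 bp (TEAD -0.35). The cause of these changes was not tested.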
